A study of Mus musculus with 6 samples.

Results

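Lsd1 peaks were examined at 10 genes of the AP-1 factor group and its bZIP relatives, namely Fos, Fosb, Fosl1, Fosl2, Jun, Junb, Jund, Atf3, Maff and Mafk. These factors bind DNA as dimers through a basic region and a leucine zipper. Fos proteins pair with Jun proteins, Jun proteins also pair among themselves, Atf3 is a stress-induced partner, and the small Maf proteins Maff and Mafk lack an activation domain of their own. Many of the genes are immediate early genes, transcribed within minutes of serum or stress without new protein synthesis. In myoblasts AP-1 is known for holding back differentiation, since Jun binds the myogenic factor MyoD and restrains it, and in preadipocytes Fos rises briefly at the start of adipogenesis. Lsd1 is a histone lysine demethylase that acts in corepressor and, in some settings, coactivator complexes. The members were all Lsd1 peaks centred within 20 kb of the curated RefSeq span of each gene on mm10. They numbered 64 of 43426 peaks in the myogenic library, 38 of 18893 in the adipogenic library and 51 of 33533 in the LSD1(OE) library, which is 153 of 95852 peaks in all, near 10 of 26180 genes.

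Lsd1 was immunoprecipitated from C2C12 cells, which are myoblasts of mouse origin, on day 1 of differentiation, with an antibody against its C-terminus. Wild-type cells were kept in myogenic medium, DMEM with horse serum, or in adipogenic medium, which contained fetal calf serum, isobutylmethylxanthine, indomethacin, dexamethasone, insulin, T3 and rosiglitazone. LSD1(OE) cells were kept in the adipogenic medium too. They were a stable lentiviral line selected with G418 that carried Flag-tagged LSD1 under a tetracycline-dependent promoter and received doxycycline before and throughout differentiation, so the effects of LSD1 level, of the line and of doxycycline cannot be told apart. Each condition was sequenced as 1 ChIP and 1 input library, which means that values have no replicates and differences are between single libraries. The files hold no RNA, so neither the cell type nor the level of LSD1 could be checked against them.

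With duplicates limited, the ChIP libraries ranged from 46155625 to 63915769 tags, a tag being an aligned read. The peaks took up 7.12% of them in the myogenic, 3.20% in the adipogenic and 5.28% in the LSD1(OE) library. The fewest tags in a peak were 27, 35 and 30, and a weaker signal was not detectable at this depth. The peak score used here is the one MACS gives, 10 times the negative log10 of the p-value against the local background. It grows with depth, so scores of different libraries, though listed together, are to be compared within each library only. Between libraries the tag density was used, in tags per kb of peak per 1000000 ChIP tags, with an exact 95% Poisson interval that covers counting error only.

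Sequence windows around recognition sites at these genes are shown first, to set the Lsd1 peaks beside letters that match sites of known regulators of such genes. They were chosen from more matches and are examples. They are from mm10, 5′ to 3′ on the strand of the gene, with the site in capitals. The Fos window, chr12:85473531-85473640 on the plus strand, holds a CArG box, the site of serum response factor, that starts 309 bp before the transcription start site (TSS). The Fosb window, chr7:19310258-19310367 on the minus strand, holds a CArG box 272 bp before the TSS. The Maff window, chr15:79347441-79347519 on the plus strand, holds a CRE, the site of the Creb and Atf factors, 29 bp before an annotated start in the first intron of a longer transcript. The Junb window, chr8:84978749-84978814 on the minus strand, holds an E-box 16 bp before the TSS. E-boxes of this form bind myogenic bHLH factors. The Mafk windows, chr5:139794994-139795100 and chr5:139797047-139797153 on the plus strand, each hold an AP-1 site in an intron, 3508 and 5561 bp after the TSS. The Jund window, chr8:70682281-70682387 on the plus strand, holds an AP-1 site 15408 bp before the TSS.
Fos CArG window: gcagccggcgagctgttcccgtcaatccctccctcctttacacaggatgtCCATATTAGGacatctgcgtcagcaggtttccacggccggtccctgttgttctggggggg
Fosb CArG window: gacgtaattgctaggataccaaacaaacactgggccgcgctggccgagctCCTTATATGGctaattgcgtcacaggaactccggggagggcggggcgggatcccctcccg
Maff CRE window: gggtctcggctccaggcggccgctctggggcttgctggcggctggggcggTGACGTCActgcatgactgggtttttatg
Junb E-box window: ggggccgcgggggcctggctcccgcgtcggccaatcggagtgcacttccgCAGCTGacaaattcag
Mafk proximal intronic window: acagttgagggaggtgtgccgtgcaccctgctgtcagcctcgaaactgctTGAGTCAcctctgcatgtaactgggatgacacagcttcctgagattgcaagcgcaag
Mafk distal intronic window: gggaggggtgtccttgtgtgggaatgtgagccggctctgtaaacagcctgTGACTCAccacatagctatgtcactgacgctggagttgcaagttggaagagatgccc
Jund upstream window: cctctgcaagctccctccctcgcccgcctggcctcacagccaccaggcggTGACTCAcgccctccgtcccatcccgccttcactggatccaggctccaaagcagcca

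The Mafk and Jund sites were picked from Lsd1 peaks, so that they lie inside one is no result. Of the others, the Fos CArG box, the Maff CRE and the Junb E-box lay inside a peak in all 3 libraries, and the Fosb CArG box lay inside a peak in 0 of them. These sites were taken from the 400 bases upstream of a TSS. A peak covered that TSS in every library at Fos, Maff and Junb and in none at Fosb. Whether such a site lay inside a peak is therefore no result apart from the cover of the TSS. The Mafk sites were 93, 96 and 121 bp from the summits of the myogenic, adipogenic and LSD1(OE) peaks for the proximal site and 100, 79 and 46 bp for the distal one. The Jund site lay 39 bp from the myogenic summit, 1 bp from the adipogenic summit and 664 bp from the LSD1(OE) summit. The Maff CRE lay 55 and 60 bp from the summits in wild-type cells and 1167 bp from the LSD1(OE) summit. A summit is the base with the most tags in a peak, so at Jund and Maff the LSD1(OE) summit fell elsewhere in the same peak. At Junb it was the adipogenic summit that fell elsewhere, 2534 bp from the E-box, against 78 bp for the myogenic and 32 bp for the LSD1(OE) summit. The Fos CArG box was 384, 337 and 1058 bp from the summits, towards the upstream edge of the peak.

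Each of the 10 genes had a promoter peak, centred within 2000 bp of a TSS, in each library. Over all 26180 curated genes a promoter peak was present for 46.8% in the myogenic, 27.0% in the adipogenic and 37.3% in the LSD1(OE) library. All 10 genes had one in all 3 libraries at once, where the share over all genes was 23.5%. A peak within 20 kb was likewise found for 10 of 10 genes in every library, against 68.0, 48.0 and 60.4% of all genes. Most promoters of these genes were rich in CpG. Over the 9 genes with an entry in the RefSeq promoter table the ratio of observed to expected CpG had a median of 0.752 and ranged from 0.184, at Jund, to 1.03, at Fosl2, against a median of 0.415 over 27025 genes. Among the 15669 genes at or above the lowest ratio of the members, 30.3% had a promoter peak in all 3 libraries, and 9 of 9 members did. That limit lies below the all-gene median, so these genes are not matched to the members for CpG. The part of CpG in the peaks of the members was not tested.

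**Figure D1:**
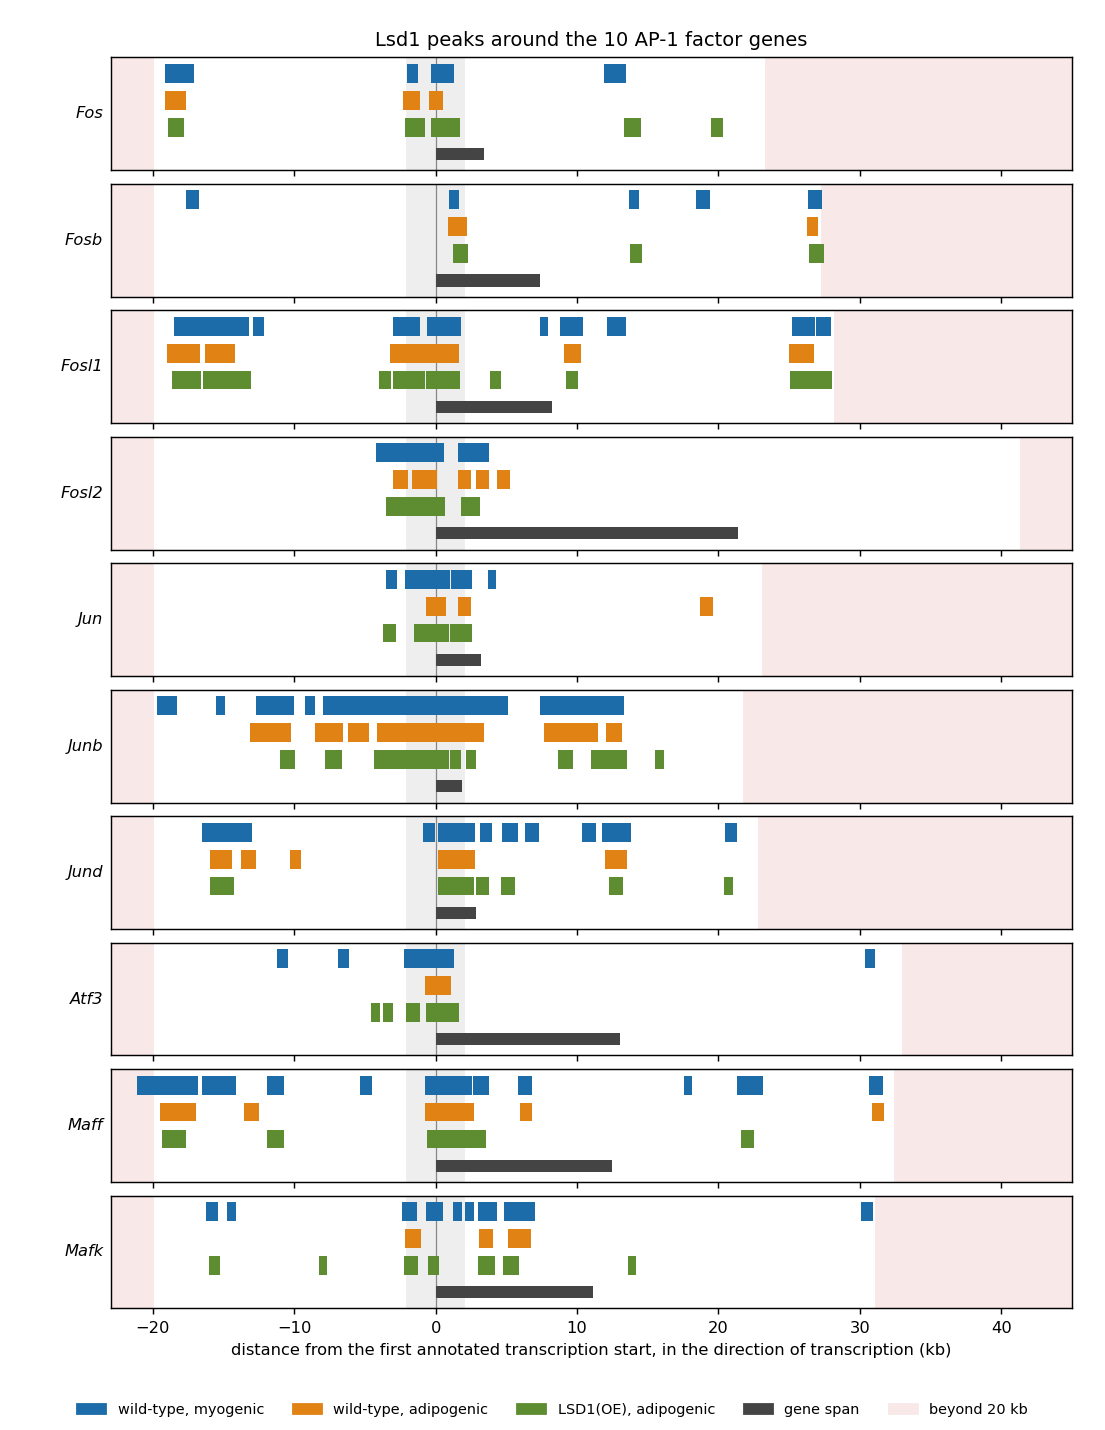
Lsd1 peaks around the 10 genes, drawn by distance from the TSS furthest upstream in the direction of transcription (kb), with 1 row of bars per ChIP library and the gene span as a dark bar. Grey bands mark 2 kb on either side of that TSS, pink marks ground beyond 20 kb of the gene, and each gene has bars of all 3 colours in or touching the grey band, the widest at Junb.

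The promoter peaks of most of the group were strong within their libraries. The strongest promoter peak of each member had a median score of 1047 in the myogenic, 277 in the adipogenic and 703 in the LSD1(OE) library, while the strongest promoter peaks of all genes that had one had medians of 319, 141 and 204. In the myogenic library 8 of 10 members were above that median, in the adipogenic library 9 and in the LSD1(OE) library 8. Fosb was below the all-gene median in the myogenic and LSD1(OE) libraries, and Mafk was below it in every library.

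Among the Fos family genes, Fosl2 had the strongest promoter peak in the myogenic and LSD1(OE) libraries and Fosl1 in the adipogenic library. Fosl2, which encodes Fra-2, lies at chr5:32136472-32157840 on the plus strand. Its promoter peak scored 2974.76 in the myogenic, 480.86 in the adipogenic and 1559.71 in the LSD1(OE) library, at percentiles 99.6, 92.3 and 98.0 of the strongest promoter peaks of all genes. The myogenic peak ran over 4763 bp, from upstream across the TSS, with 512 tags. In the adipogenic library the same stretch held 2 shorter peaks, of 1047 and 1779 bp. A further peak in the first 4 kb of the gene, in an intron, was called in every library. It scored 394.33 in the myogenic, 78.84 in the adipogenic and 162.69 in the LSD1(OE) library. The adipogenic library had another peak in this stretch, with a score of 73.98.

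Fosl1 encodes Fra-1 and lies at chr19:5447698-5455938 on the plus strand. Its strongest promoter peak scored 1111.92, 1020.9 and 749.69 in the myogenic, adipogenic and LSD1(OE) libraries, and it was the member with the highest adipogenic percentile after Junb, 98.6. In the adipogenic library a single peak of 4833 bp and 493 tags covered both the TSS and the ground upstream of it. The myogenic and LSD1(OE) libraries had separate peaks there. The myogenic ones were centred 2054 bp before and 595 bp after the TSS, and the LSD1(OE) ones 1857 bp before and 524 bp after it. The strongest LSD1(OE) promoter peak was the upstream one, so at Fosl1 the densities of the libraries do not refer to the same stretch.

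Fos lies at chr12:85473890-85477274 on the plus strand and had 2 promoter peaks in each library. The peak over the TSS scored 694.52 in the myogenic, 187.37 in the adipogenic and 506.97 in the LSD1(OE) library. A peak upstream of it, centred 1649, 1694 and 1479 bp before the TSS, scored 75.04, 255.79 and 263.51. The upstream peak was thus the weaker of the pair in the myogenic and LSD1(OE) libraries and the stronger in the adipogenic library. Its density was 1.08 (0.763 to 1.48) in the myogenic, 1.46 (1.21 to 1.75) in the adipogenic and 1.32 (1.07 to 1.59) in the LSD1(OE) library, and these intervals overlap. Over the TSS the density was 1.94 in the myogenic, 1.41 in the adipogenic and 1.45 in the LSD1(OE) library. Further off, a peak centred 18128, 18380 and 18362 bp upstream was called in the respective libraries, with scores of 381.83, 135.29 and 185.1, and Fos was the nearest gene to it.

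Fosb lies at chr7:19302696-19310045 on the minus strand and had the weakest promoter signal of the Fos family in the myogenic library. Its 1 promoter peak per library scored 112.78 in the myogenic, 157.29 in the adipogenic and 160.71 in the LSD1(OE) library. It was centred in an intron, 1278, 1574 and 1776 bp after the TSS, and did not cover the TSS in any library. With 43, 103 and 70 tags, its densities of 1.26, 1.19 and 1.23 differed by less than their intervals.

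Among the Jun family genes, Junb stood out by the width of its peak, which is described with the other broad peaks below. Jun, the partner of Fos in the classical AP-1 dimer, lies at chr4:95049036-95052222 on the minus strand. The peak over its TSS scored 1123.59 in the myogenic, 261.88 in the adipogenic and 268.48 in the LSD1(OE) library. A peak over the 3′ UTR of this intronless gene scored 303.37, 87.93 and 497.27. In the LSD1(OE) library the peak over the 3′ UTR was therefore the stronger of the pair, whereas in both wild-type libraries the peak over the TSS was. The density over the 3′ UTR was 1.42 (1.16 to 1.73) in the myogenic, 1.12 (0.859 to 1.42) in the adipogenic and 1.63 (1.37 to 1.92) in the LSD1(OE) library, and over the TSS it was 1.82, 1.41 and 1.25.

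Jund, the Jun family gene with the steadiest expression in most cells, lies at chr8:70697739-70700616 on the plus strand. Its strongest promoter peak began after the TSS and covered the body of this intronless gene in every library, from 2519 to 2590 bp long. It scored 1487.14 in the myogenic, 427.84 in the adipogenic and 1352.41 in the LSD1(OE) library. Its density was 2.42 (2.14 to 2.71) in the myogenic, 1.51 (1.33 to 1.71) in the adipogenic and 2.03 (1.80 to 2.28) in the LSD1(OE) library. Jund was the 1 member whose LSD1(OE) density lay above its adipogenic density with intervals apart. Among 6156 genes with a promoter peak in all 3 libraries, 7.99% showed that.

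Atf3 lies at chr1:191170296-191183333 on the minus strand. A peak covered its TSS in all 3 libraries, with scores of 983.06, 292.41 and 655.58 and 205, 155 and 204 tags. It was the only peak near Atf3 in the adipogenic library, where the myogenic library had 5 and the LSD1(OE) library 4. Among these, a peak centred 1614 bp upstream in the myogenic library scored 196.1 and one centred 1589 bp upstream in the LSD1(OE) library scored 131.28.

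The small Maf genes differed from each other. Maff lies at chr15:79346621-79359076 on the plus strand and has 4 annotated starts within a stretch that 1 peak covered in each library, of 3314, 3410 and 4132 bp. The peak scored 677.86 in the myogenic, 208.38 in the adipogenic and 1179.21 in the LSD1(OE) library, at percentiles 80.8, 68.8 and 96.1 within those libraries. Its densities of 1.69, 1.45 and 1.63 had overlapping intervals. The adipogenic peak held 316 tags over 3410 bp and scored lower than the strongest adipogenic promoter peak of Fos, with 116 tags over 1242 bp. Their densities were 1.45 and 1.46, and the reason for the lower score was not tested.

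Mafk lies at chr5:139791536-139802652 on the plus strand, and in each library its strongest peak lay in an intron rather than at its start. The strongest promoter peak scored 283.7 in the myogenic, 78.23 in the adipogenic and 135.62 in the LSD1(OE) library. The intronic peak with the proximal AP-1 site printed above scored 752.24, 75.29 and 394.42, and the one with the distal site scored 689.99, 185.52 and 119.49. Both intronic peaks outscored the strongest promoter peak in the myogenic library only. The proximal peak had a density of 2.17 (1.82 to 2.56) in the myogenic, 1.04 (0.803 to 1.33) in the adipogenic and 1.62 (1.33 to 1.96) in the LSD1(OE) library. At that peak the adipogenic interval lay below both others, and the myogenic and LSD1(OE) intervals overlapped. The distal peak had densities of 1.71 (1.46 to 1.98), 1.18 (0.987 to 1.41) and 1.07 (0.824 to 1.36), and there the LSD1(OE) value was not above the adipogenic one.

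**Figure D2:**
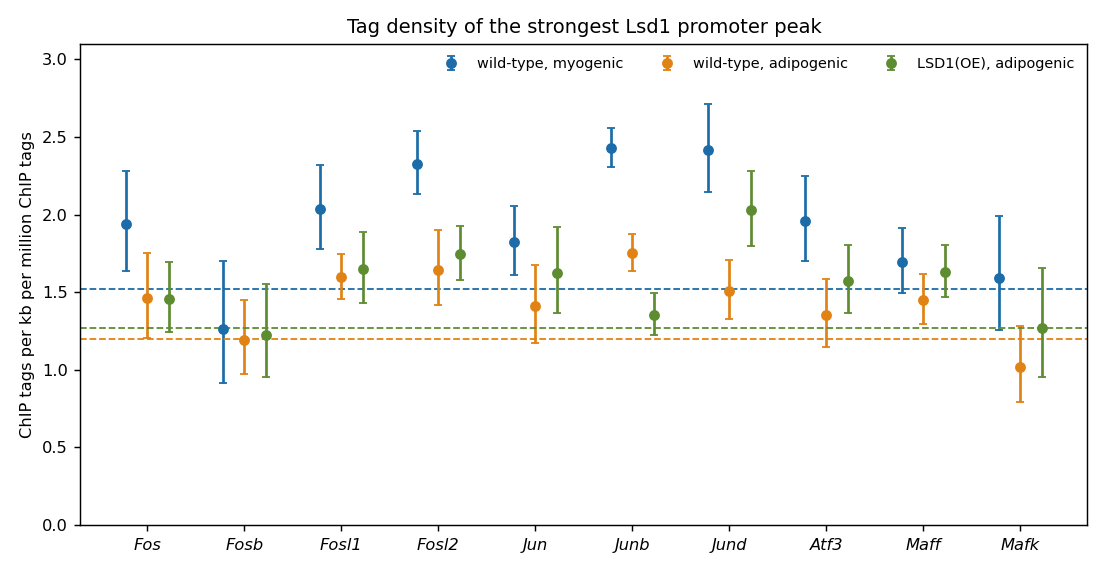
Tag density of the strongest promoter peak of each gene, in ChIP tags per kb per 1000000 ChIP tags, with exact 95% Poisson intervals as bars and 1 point per library. Dashed lines mark the median over all genes with a promoter peak in that library, and the myogenic point is the highest of the 3 at every gene, while at Junb the LSD1(OE) point is the lowest.

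Between libraries the members moved with the genome. The density of the strongest promoter peak was lower in the adipogenic than in the myogenic library at 10 of 10 members, and so it was at 96.3% of the 6156 genes with a promoter peak in all 3 libraries. The median log2 ratio was -0.44 over the members and -0.47 over those genes. The intervals were apart in that direction at Fosl1, Fosl2, Junb, Jund and Atf3, which is 5 of 10, against 41.1% of those genes. The share of members was close to that of all such genes, so the lower adipogenic density was not particular to this group. The share of ChIP tags in peaks, 7.12% in the myogenic and 3.20% in the adipogenic library, moved the same way, and its part in the difference was not tested. At Fos, Fosl1, Jun and Mafk the strongest promoter peak was not the same peak in every library.

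The LSD1(OE) library was lower than the myogenic at 10 of 10 members, against 86.2% of those genes, with a median log2 ratio of -0.31 over the members and -0.31 over all. Intervals were apart in that direction at Fosl2 and Junb, which is 2 of 10 against 22.1%. At Jun the strongest LSD1(OE) peak was the one over the 3′ UTR, and the myogenic and LSD1(OE) intervals over the TSS were apart too. Set against the adipogenic library in the same medium, the LSD1(OE) density was higher at 8 of 10 members and lower at Fos and Junb, where 74.0% of those genes were higher. At Fosl1 and Jun the higher LSD1(OE) value came from another peak than the one over the TSS. Over the TSS the LSD1(OE) density was the lower, 1.55 against 1.60 at Fosl1 and 1.25 against 1.41 at Jun. At Fos it was the higher there, 1.45 against 1.41, and the intervals at these genes overlap. For the strongest promoter peaks the median log2 ratio was 0.13 over the members and 0.16 over all. Both LSD1(OE) comparisons thus also gave medians near those of all genes.

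Junb was the exception among the 10. Its promoter density was 2.43 (2.31 to 2.56) in the myogenic, 1.75 (1.64 to 1.87) in the adipogenic and 1.35 (1.22 to 1.49) in the LSD1(OE) library. All 3 intervals were apart, and the LSD1(OE) value was the lowest. The log2 ratio of LSD1(OE) over adipogenic was -0.37, at percentile 1.12 of the 6156 genes. A lower LSD1(OE) density with intervals apart was found at 1 of 10 members and at 0.211% of those genes. Intervals narrow as tags rise, and the adipogenic and LSD1(OE) peaks of Junb were long, with 849 and 395 tags. At a gene with fewer tags the same ratio can leave intervals overlapping. The genes were not matched for tags, so the 0.211% is not a like background. The other shares of genes with intervals apart have the same limit.

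Junb, at chr8:84976909-84978748 on the minus strand, lay in a broad Lsd1 domain. In the myogenic library a single peak of 13060 bp, chr8:84973633-84986692, held 1465 tags and scored 2272.01. It was the longest peak but 4 of the 43426 in that library, at rank 5. It reached 7944 bp upstream of the TSS and 3276 bp past the end of the gene, which itself took up 14.1% of it. In the adipogenic library the peak was 7583 bp long, with 849 tags, a score of 1324.79 and rank 11 by length. In the LSD1(OE) library it was 5294 bp long, with 395 tags, a score of 1089.31 and rank 114.

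The order of the libraries at Junb was the same when tags were summed over neighbouring peaks. Over the whole merged domain, chr8:84973633-84987297, the myogenic library had 1 peak, the adipogenic 3 and the LSD1(OE) 4. These peaks summed to 31.7 tags per 1000000 ChIP tags over 13060 bp in the myogenic, 18.9 tags per 1000000 ChIP tags over 11108 bp in the adipogenic and 10.4 tags per 1000000 ChIP tags over 7978 bp in the LSD1(OE) library. The mean densities over these lengths were 2.43, 1.71 and 1.31. Within 20 kb of Junb the peaks held 52.7, 30.3 and 16.8 tags per 1000000 ChIP tags over 24563, 18874 and 13316 bp. By that sum Junb was the only member with less in the LSD1(OE) than in the adipogenic library.

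**Figure D3:**
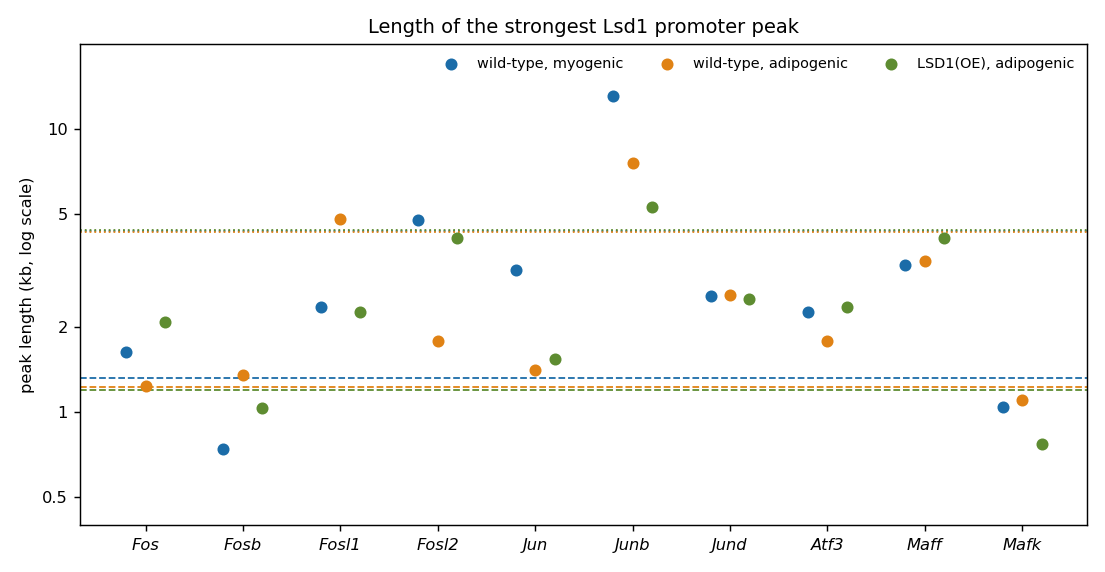
Length of the strongest promoter peak of each gene in kb on a log axis, with 1 point per library. Dashed lines mark the median and dotted lines the 99th percentile over all genes with a promoter peak in that library, and the 3 points of Junb, 13060, 7583 and 5294 bp, lie above the dotted lines.

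Broad promoter peaks were found at several other members. A promoter peak of 3000 bp or more was present at Fosl2, Jun, Junb and Maff in the myogenic library, which is 4 of 10 against 2.12% of all genes. In the adipogenic library it was present at Fosl1, Junb and Maff, 3 of 10 against 1.02%. In the LSD1(OE) library it was present at Fosl2, Junb and Maff, 3 of 10 against 1.54%. These shares count genes without any promoter peak, while all 10 members had one. Of the genes with a promoter peak, 554 of 12251 had a broad one in the myogenic library. It was 266 of 7063 in the adipogenic and 403 of 9772 in the LSD1(OE) library. Junb and Maff thus had a broad peak in every library. The strongest promoter peaks of the members had a median length of 2463.5 bp in the myogenic, 1785 bp in the adipogenic and 2301.5 bp in the LSD1(OE) library, against 1323, 1229 and 1200 bp over all genes with one.

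Peaks that overlapped between libraries were merged into 72 regions near the 10 genes, of which 25 were called in all 3 libraries. That is 34.7%, against 20.6% of the 56729 regions of the genome. A further 23 were called in the myogenic library alone, 31.9% against 35.9% of all regions, and 11 in the myogenic and LSD1(OE) libraries, 15.3% against 12.2%. LSD1(OE) alone accounted for 7, 9.72% against 20.8%, the adipogenic library alone for 4, 5.56% against 3.70%, and both wild-type libraries for 2, 2.78% against 4.38%. None, 0 of 72, were shared by the adipogenic and LSD1(OE) libraries without the myogenic one, where the share over all regions was 2.45%. Of the 16 promoter regions 12 were called in all 3 libraries, and of the 56 other regions 13 were. The regions of the genome were not split in this way, so these counts have no share to be set against. What part promoter regions had in the 34.7% was not tested. Taking the strongest peak of each library, density was higher in the adipogenic than in the myogenic library at 2 of the 25 shared regions. The share over shared regions of the genome was 11.1%. The 2 were the upstream Fos promoter region and a region whose myogenic peak was centred 15851 bp upstream of Fosl1. Intervals overlapped at both. In the Fosl1 region the density was 1.85 (1.64 to 2.08) over 2332 bp in the adipogenic library. It was 1.60 (1.44 to 1.76) over 5311 bp in the myogenic library. A second adipogenic peak there, with 161 tags over 2099 bp, had a lower density than the myogenic one. The higher adipogenic value thus refers to part of that region only.

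A member was the gene nearest to 31 of the 64 myogenic, 23 of the 38 adipogenic and 29 of the 51 LSD1(OE) peaks. The others lay nearer to a neighbouring gene, and which gene they act on cannot be read from position. The strongest of these was a myogenic peak centred 14746 bp upstream of Jund, nearest to Lsm4, which encodes a subunit of the ring around U6 snRNA. It scored 1750.5, above the Jund promoter peak, with a density of 2.08 (1.86 to 2.31), while the strongest peaks of that region scored 227.01 in the adipogenic and 449.68 in the LSD1(OE) library, with densities of 1.30 (1.08 to 1.54) and 1.48 (1.25 to 1.75). This is the region whose AP-1 site is printed above. Next to Junb, a myogenic peak of 5954 bp near the starts of Prdx2, a peroxiredoxin gene, and Rnaseh2a, a subunit of ribonuclease H, scored 1656.09, and the strongest peaks of that region scored 218.19 in the adipogenic and 347.42 in the LSD1(OE) library, each of which had 2 peaks there. Upstream of Maff, the strongest peak near the start of the phospholipase gene Pla2g6 scored 1307.88, 184.14 and 602.93. Upstream of Fosl1, in the region with the myogenic peak centred 15851 bp from its TSS, the nearest gene was AI837181. The strongest peaks there scored 1217.66, 666.25 and 642.15. Beyond the end of Fosl1, the peak at Efemp2, an extracellular matrix gene, scored 966.44, 294.84 and 926.25. Densities of the strongest peaks near Prdx2 and Rnaseh2a were 1.88, 1.44 and 1.19 in the myogenic, adipogenic and LSD1(OE) libraries. The adipogenic one lay nearest to Prdx2 and the LSD1(OE) one nearest to Rnaseh2a, so they cover largely different stretches. The LSD1(OE) peak nearest to Prdx2 had a density of 1.28, and the adipogenic peak nearest to Rnaseh2a had 1.48. In the order of the libraries given above, densities were 1.95, 1.31 and 1.69 near Pla2g6 and 2.27, 1.36 and 1.61 at Efemp2.

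Around summits, AP-1 sites were about as frequent near these genes as elsewhere, a little less so in the myogenic and a little more so in the other libraries. The letters TGANTCA, whose complement is the same pattern, stood within the 300 bases around the summit of 14.1% of the 64 myogenic, 21.1% of the 38 adipogenic and 19.6% of the 51 LSD1(OE) peaks near members. Over all peaks the shares were 18.9, 20.3 and 18.1%. The regions with such a site in the summit windows of all 3 libraries were the Mafk intronic pair and the one upstream of Jund, where the LSD1(OE) window held another copy than the one printed. Promoter peaks held the site in 1 of 17, 1 of 11 and 1 of 17 windows, which is 5.88, 9.09 and 5.88% against 6.85, 7.69 and 7.24% of all promoter peaks.

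In the 400 bases upstream of each TSS, both strands were searched at the 9 genes of the promoter table. A CArG box was found at Fos and Fosb and is present at 2.10% of the 31647 TSSs of the genome. TGACGTCA, the CRE, was found at Maff and at 2.13% of TSSs. TGANTCA was found 353 bp before the most upstream start of Maff and at 9.66% of TSSs. CAGCTG was found at Fos, Junb and Jund, 22, 16 and 173 bp before the TSS, and at 18.5% of TSSs. GGAATG, the TEAD motif, was found at 0 of the 9 genes and at 18.7% of TSSs. GGGCGG, the GC box bound by Sp factors, was found at Atf3, Fos, Fosb, Fosl2, Jun, Maff and Mafk and at 43.7% of TSSs. A match of letters is a description and not a measured binding site.

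Other genes of the pathway carried promoter peaks less uniformly. Of 16 other bZIP partners 11 had one in the myogenic, 10 in the adipogenic and 11 in the LSD1(OE) library, and 10 had one in all 3. The strongest myogenic scores among them were at Mafa with 1865.82, at Atf4, the factor of the integrated stress response, with 1800.98, and at Nfe2l2, which encodes the small Maf partner Nrf2, with 1759.64. Batf, Batf2, Batf3 and Bach2 were among those with no promoter peak in any library. The Batf factors and Bach2 are known from lymphoid and myeloid cells.

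Of 14 other immediate early genes 13 had a promoter peak in the myogenic, 10 in the adipogenic and 12 in the LSD1(OE) library, and 9 had one in all 3. The strongest myogenic scores were 2655.01 at Myc, 1972.36 at Ier2 and 1485.95 at Egr1. Egr4 had no promoter peak in any library. Myc had none in the LSD1(OE) library by the rule on peak centres, since the peak that covers it there was centred 2577 bp from the TSS. That peak held 2049 tags and scored 698.77, with a density of 2.23, against 2.30 in the myogenic and 2.08 in the adipogenic library. At Egr1 the densities were 2.03 in the myogenic, 1.06 in the adipogenic and 1.33 in the LSD1(OE) library.

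Of 11 kinases that act upstream of AP-1, 10 had a promoter peak in the myogenic, 6 in the adipogenic and 7 in the LSD1(OE) library, and 4 had one in all 3. The highest myogenic scores were 896.23 at Mapk14, the p38 alpha gene, and 508.76 at Map2k4. Mapk10, the Jun kinase of neurons, had none in any library. Against the same all-gene shares of 46.8, 27.0 and 37.3%, each of these lists was above the genome and below the 10 of 10 of the AP-1 factor genes. The genes and the lists were chosen with earlier results of these data known, so this order is a description only.

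**Figure D4:**
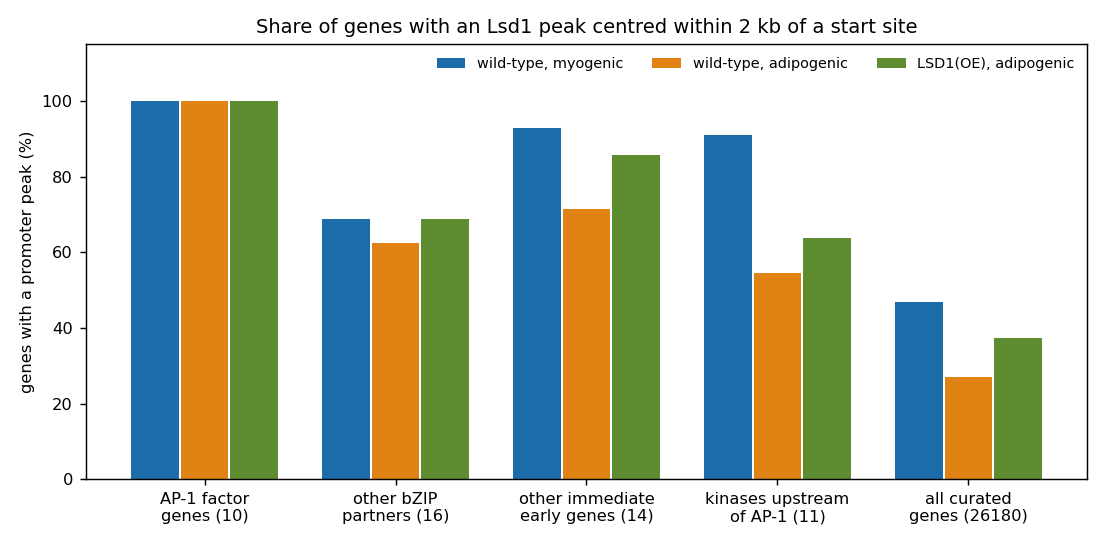
Share of genes with an Lsd1 peak centred within 2 kb of a TSS (%), for the 10 AP-1 factor genes, 3 lists of related genes and all 26180 curated genes, with 1 bar per library. The AP-1 factor genes stand at 100% in each library, and all genes at 46.8, 27.0 and 37.3%.

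Weak peaks decided some of these counts. With an FDR limit of 0.1% Fosb had no promoter peak left in the myogenic library and Mafk none in the adipogenic library, so that 8 of 10 genes had a promoter peak in all 3 libraries, against 13.6% of all genes. With a promoter window of 1000 bp 5 of 10 genes did, because the peaks of Fosb, Fosl2, Junb, Jund and Mafk were centred further from the TSS in at least 1 library. No share over all genes was computed for that window, so this count cannot be set against the genome.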

How the data were processed

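Lsd1 ChIP-seq libraries of C2C12 cells, 1 ChIP and 1 input per condition, were grouped by their labels. Per the labels and the file headers, the authors aligned single reads of 50 bp to mm10. They ran MACS 1.4.2 at p 1e-05 on each ChIP library with its matching input, without pooling, and each ChIP library was scaled up to its input. The labels' tool list gives MACS 1.41 and Bowtie2. The deposited lists hold for each peak a tag count without normalization, a score, a ratio written as fold enrichment, and an FDR in percent. The fold enrichment was not used, since the scaling differed between libraries.

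All deposited peaks had an FDR under 1%. TSSs were those of curated RefSeq transcripts, 31647 of 26180 genes, on the mm10 assembly, and promoter sequences were from RefSeq on the same assembly, with 9 of 10 genes matched. A peak was placed by its centre. Regions are merged overlapping peaks. Tag densities were computed from the deposited count, the peak length and the filtered ChIP tags. Percentiles are among genes with a promoter peak. With 1 library per condition no test was made, and shares over all genes are given in its place. The genes and the lists of related genes were chosen with earlier results of these data known. All 10 genes are named. Of each related list, the 3 genes with the highest myogenic promoter score and those without a promoter peak in any library are named, except for items that are not reported here, and Myc and Egr1 values beyond that were added after they were seen. Other settings tried were an FDR limit of 0.1%, a minimum score of 100, lists of equal size, unscaled tags, other windows and assignments, and whole peaks for motifs. The steps were tested on simulated peaks. Software comprised pandas 2.3.3, NumPy 2.4.6 and SciPy 1.17.1 under Python 3.11.15.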

Additional observations from a re-analysis of the deposited data

How the results depend on the processing

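With no replicates, counting error is the only error that could be given, and variation between cultures or library preparations was not measured. The fewest tags in a called peak were 27 to 35. A peak within 20 kb was found for 10 of 10 genes under every alternative tried for it. The number of peaks there fell from 64, 38 and 51 (myogenic, adipogenic, LSD1(OE)) to 40, 24 and 31 with an FDR limit of 0.1%. It was 25 in the adipogenic library with a score of at least 100, 35 in the myogenic library with equal numbers of peaks, where the adipogenic library kept 38, and 41 and 25 in the wild-type libraries with a 10 kb window. For a promoter window of 1000 bp no share over all genes was computed. With it a promoter peak was left at 6 genes in LSD1(OE) and at 5 in all 3 libraries. The latter count was 8 with the FDR limit of 0.1% (13.6% of all genes), 9 with a score of at least 100 (15.8%) and with equal numbers (20.1%), and 10 with unscaled tags (19.6%). Where intervals had to be apart, 5 genes were lower in the adipogenic and 2 in the LSD1(OE) than in the myogenic library, and 1 was higher in LSD1(OE) than in the adipogenic library. Summed tags in all peaks within 20 kb, an alternative chosen after seeing the data, gave 10, 10 and 9. Searching whole peaks in place of summit windows raised the shares with an AP-1 site to 34.4, 50 and 39.2%, against 39.1, 44.8 and 39.0% of all peaks. No paired analysis was possible because each condition has 1 library and the result comes from no test.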
